A study of Mus musculus with 23 samples.

Results

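Medium spiny neurons are the projection neurons of the striatum, and the genes described here are a set of 40 that mark them. The set was fixed as a list of gene symbols and holds receptors, neuropeptide precursors, signalling proteins and transcription factors. All 40 were found in the deposited table of 27178 genes. All 40 also reached a normalized count of 10 in at least 5 of the 23 libraries, as 16385 genes in all did. The rule for membership uses symbols and this minimum, and the list itself was drawn up with earlier results of these data known.

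The libraries were bulk RNA-seq of polyadenylated RNA from the orbitofrontal cortex (OFC), the part of the frontal cortex above the eyes, of wild-type male C57BL/6J mice given as 8 weeks of age. On day 0 an AAV6 vector with the promoter of the astrocyte gene Gfap was injected into the OFC, carrying GFP alone or the gene of the zinc-finger transcription factor ZBTB7A. Stressed mice met a subthreshold social defeat, a short exposure to an aggressor, on day 21, and the others were controls. After behavioural tests on days 22 to 27, the infected OFC was microdissected on day 28. Of the 4 groups, ZBTB7A stress had 5 libraries, ZBTB7A control 5, GFP stress 8 and GFP control 5, and mice of all groups carried a virus. A library is called by its group and its title number. The labels do not say whether each library came from its own mouse, so p-values measure the spread between these samples. The Gfap promoter aims the vector at astrocytes, whereas the members were listed as medium spiny neuron genes and were read here from whole tissue.

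Medium spiny neurons release GABA and fall into 2 main classes. Neurons of the direct pathway carry the dopamine D1 receptor, which raises cAMP, and make substance P and dynorphin. Neurons of the indirect pathway carry the dopamine D2 receptor, which lowers cAMP, and the adenosine receptor Adora2a, which raises it, and they make enkephalin. The striatum lies beneath the frontal cortex. Cortical neurons also express a number of the members, such as Foxp1, Meis2, Bcl11b, Arpp21, Hpca and Ptpn5, while receptors such as Drd2 and Adora2a are far more abundant in striatum.

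The promoters of 4 members are shown because these genes stand for the direct pathway (Drd1 and Tac1) and the indirect pathway (Drd2 and Gpr6), whose transcripts varied together over the libraries below. Each line is the 250 bases before an annotated transcription start, 5′ to 3′ on the gene's strand, from RefSeq on GRCm38.p6. Capitals mark GGGCGG, the GC box, and CGTCA, the core of the cAMP response element, on either strand. In Gpr6 the capitals mark the full element TGACGTCA, which holds the core on both strands. Drd1 has 2 annotated starts, and the window of the first, which holds none of these motifs, is at chr13:54055659-54055908 on the minus strand. The window of the second holds a GC box and is not shown. Drd2 is at chr9:49340153-49340402 on the plus strand, Tac1 at chr6:7554811-7555060 on the plus strand and Gpr6 at chr10:41072291-41072540 on the minus strand.
Drd1 start 1: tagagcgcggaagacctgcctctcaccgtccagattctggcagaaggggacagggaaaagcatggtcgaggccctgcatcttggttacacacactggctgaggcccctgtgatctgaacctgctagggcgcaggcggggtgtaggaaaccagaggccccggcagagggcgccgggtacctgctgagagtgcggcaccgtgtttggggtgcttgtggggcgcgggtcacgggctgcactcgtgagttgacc
Drd2: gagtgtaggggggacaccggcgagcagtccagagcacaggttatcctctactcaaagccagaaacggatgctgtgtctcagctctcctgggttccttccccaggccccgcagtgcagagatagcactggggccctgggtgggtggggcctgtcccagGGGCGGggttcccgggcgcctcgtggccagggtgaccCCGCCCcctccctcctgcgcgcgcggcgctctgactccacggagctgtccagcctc
Tac1: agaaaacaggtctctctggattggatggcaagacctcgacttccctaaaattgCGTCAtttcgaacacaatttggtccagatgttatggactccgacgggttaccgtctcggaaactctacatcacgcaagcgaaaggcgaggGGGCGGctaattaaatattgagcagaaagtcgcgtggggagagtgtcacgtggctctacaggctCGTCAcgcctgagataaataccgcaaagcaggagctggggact
Gpr6: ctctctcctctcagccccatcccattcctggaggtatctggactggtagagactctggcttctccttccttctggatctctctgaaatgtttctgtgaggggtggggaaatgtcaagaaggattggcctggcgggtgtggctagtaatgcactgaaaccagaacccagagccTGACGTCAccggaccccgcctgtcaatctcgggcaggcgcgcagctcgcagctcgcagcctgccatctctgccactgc

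Of the 40 members, 30 had such a window, 51 windows in all, among 32851 windows of the same length. A GC box was in 17 of the 51 member windows, from 15 members, and in 32.74% of all windows. The cAMP core was in 7 member windows, from Arpp21, Foxp1, Gpr6, Isl1, Slc35d3 and Tac1, and in 17.77% of all windows. The full element was in 1 member window, that of Gpr6, and in 1.55% of all windows. A TATA box, written TATAAA, was in 2 member windows, those of Meis2 and Rgs9, and in 12.37% of all windows. Such letter matches describe the windows and are not evidence of binding.

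Reads recovered from the deposited table came to 12.479 to 51.867 M per library. Zbtb7a counts did not stand higher where the label names ZBTB7A. They averaged 3744 ± 173 (SD, n = 5) in ZBTB7A stress and 3716 ± 247 (n = 5) in ZBTB7A control. With GFP they averaged 3934 ± 251 (n = 8) under stress and 3834 ± 629 (n = 5) without it. Whether transgene reads would map to that gene was not given in the sources used here. Directions below are therefore those of the libraries so labelled. The cortical marker Slc17a7, the vesicular glutamate transporter, was present in every library, from 10938 in ZBTB7A control 6 to 57296 in GFP control 11. Differences between groups below are log2 fold changes on the scale log2(normalized count + 1), with SE, from limma over all 16385 genes.

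The members varied widely between libraries of one group. Libraries GFP stress 5, 12, 20 and 21 were the 4 lowest of all 23 for 23 members, among them Drd1, Drd2, Drd3, Adora2a, Penk, Ppp1r1b, Pde10a and Rgs9. The same 4 were the lowest for 238 of the 16385 genes, which is 1.45%. For 37 members the lowest library was among these 4. At the other end, ZBTB7A control 6 was the highest library for 33 members. Results below are therefore also given without these libraries, an alternative chosen after the data were seen. The members' own values picked these libraries, so the direction in which leaving each out moves a median difference was fixed in advance. Of these libraries, GFP stress 12 and 20 had 51.867 and 35.923 M, GFP stress 5 and 21 had 13.537 and 15.894 M of reads, and ZBTB7A control 6 had the fewest of all, 12.479 M.

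**Figure D1:**
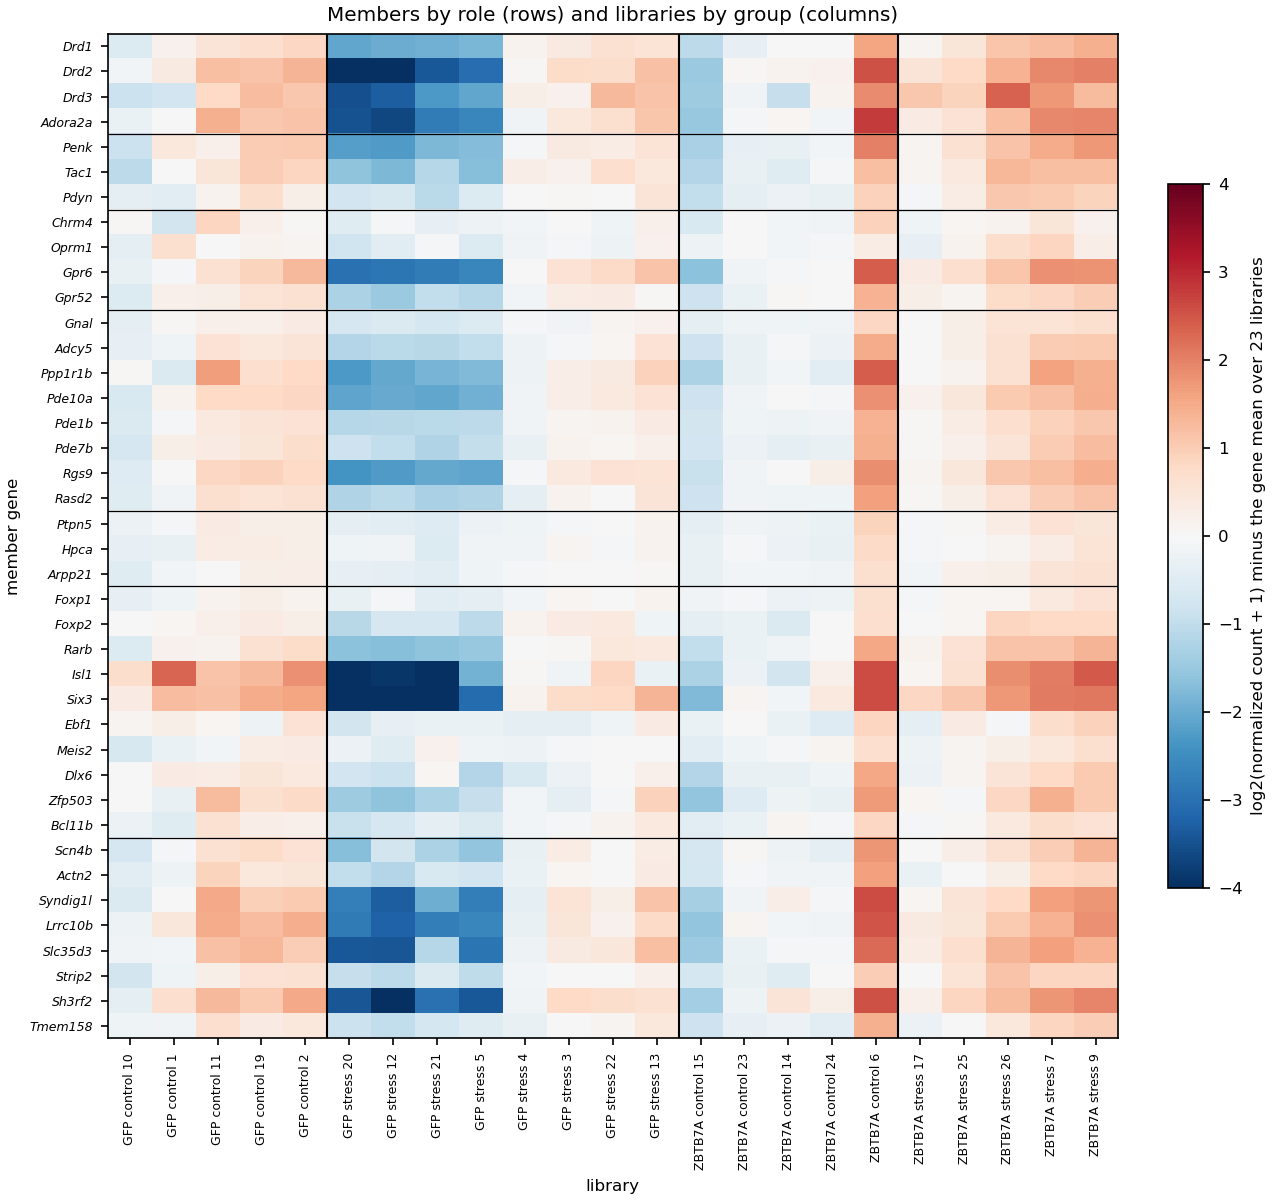
Heat map of the 40 members, ordered by role (vertical axis), in the 23 libraries, ordered within each group by their level (horizontal axis). Colour is log2(normalized count + 1) minus the gene's mean over the libraries, limited to a fixed range on both sides. The 4 lowest GFP stress columns (5, 12, 20 and 21) are low down most of their length, and the column of ZBTB7A control 6 is high.

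Of the dopamine and adenosine receptors, Drd2 and Adora2a were among the 8 members with the widest ranges. Values by library are given in the order GFP control 1, 2, 10, 11 and 19, GFP stress 3, 4, 5, 12, 13, 20, 21 and 22, ZBTB7A control 6, 14, 15, 23 and 24, and ZBTB7A stress 7, 9, 17, 25 and 26. The normalized count of Drd2 was 729.9, 1459.8, 532, 1311 and 1269.9 in GFP control. It was 944, 591, 67.7, 34.3, 1300.5, 30.5, 53.0 and 921 in GFP stress. ZBTB7A control had 3355, 628, 204, 585 and 646, and ZBTB7A stress 2173, 2335, 814, 997 and 1485. In GFP stress, Drd2 thus split into 4 libraries under 100 and 4 at 591 or more, and the range of each other group overlapped the upper 4. In this bulk tissue, fewer striatal neurons and less RNA per neuron cannot be told apart. For Adora2a, GFP control libraries gave 1309, 2952, 1098, 3533 and 2785 normalized counts. The gene's count was 1793, 1207, 215, 107, 2858, 117, 189 and 2065 in GFP stress. Values were 9263, 1403, 467, 1296 and 1245 in ZBTB7A control and 5069.7, 5133, 1678, 1989.7 and 3043 in ZBTB7A stress. Adora2a, the receptor paired with Drd2 in indirect pathway neurons, had the same 4 lowest libraries and the same highest one. GFP control libraries had 1293, 2049.7, 785, 1634 and 1819 normalized counts of Drd1. Its count ranged from 273 to 1742 in GFP stress, with a median of 799.5. In ZBTB7A control it was 3462, 1127, 554, 922 and 1139, and in ZBTB7A stress 2694, 3101, 1252, 1610.1 and 2512. Drd1 had the same 4 lowest libraries and the same highest library, with a smaller range. From the lowest library to the highest, Drd1 spanned 12.7-fold, Adora2a 86.6-fold and Drd2 110.0-fold.

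The ratio of Drd2 to Drd1, whose change between libraries does not depend on gene length, also differed. It was 0.564, 0.712, 0.677, 0.802 and 0.698 in GFP control. It was 0.641, 0.464, 0.207, 0.117, 0.779, 0.112, 0.175 and 0.529 in GFP stress. In ZBTB7A control it was 0.969, 0.557, 0.368, 0.634 and 0.567, and in ZBTB7A stress it was 0.807, 0.753, 0.650, 0.619 and 0.591. GFP stress 5, 12, 20 and 21 held the lowest ratios of all 23, so Drd2 was lower there relative to Drd1. Low values of members, Drd2 and Drd1 among them, had picked these libraries, so the ratio is not separate from that choice. The neuropeptide precursor genes gave a mixed picture. Penk over Tac1 was 5.23, 3.80, 3.48 and 3.33 in these libraries, and 5.23 lay above GFP control 11 at 4.30. Penk over Pdyn was 5.03, 3.71, 4.20 and 6.81 there, the lowest ratios of all 23. A difference between the pathways was not tested. Drd3, a D2-like receptor, was scarce and reached a normalized count of 10 in 16 libraries. It stood at 1 read in GFP stress 20 and was highest in ZBTB7A stress 26, at 94.9 normalized counts.

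The neuropeptide precursors Penk (enkephalin), Tac1 (substance P) and Pdyn (dynorphin) each had their lowest value in a GFP stress library. The normalized count of Penk was 7149.9, 11105, 2959, 6115 and 10679 in GFP control. It was 6902, 5016, 1616, 1115, 7831, 1151, 1532 and 6527 in GFP stress. ZBTB7A control had 21595, 4299.5, 2187, 4291 and 4903, and ZBTB7A stress 14932, 17644, 5749.7, 8209 and 11726. The lowest 4 values of Penk were again those of GFP stress 5, 12, 20 and 21. For Tac1, GFP control libraries gave 1020.2, 1817, 484, 1423 and 1991 normalized counts. The gene's count ranged from 293 to 1603 in GFP stress, with a median of 804. Values were 2336, 729.9, 451, 815 and 977 in ZBTB7A control and 2327, 2322, 1091, 1313 and 2547 in ZBTB7A stress. Tac1 was lowest in GFP stress 12 and highest in ZBTB7A stress 26, and ZBTB7A control 15 was also low, below GFP stress 21. GFP control libraries had 343, 551, 366, 517 and 761 normalized counts of Pdyn. Its count ranged from 225 to 681 in GFP stress, with a median of 393. In ZBTB7A control it was 899, 399, 237, 360.4 and 379, and in ZBTB7A stress 965, 877, 460.0, 579.7 and 1003. Pdyn varied least of the 3, with 4.46-fold between lowest and highest library, against 8.69-fold for Tac1 and 19.4-fold for Penk. It was lowest in GFP stress 21, followed by ZBTB7A control 15. Groups overlapped for all 3 precursors.

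**Figure D2:**
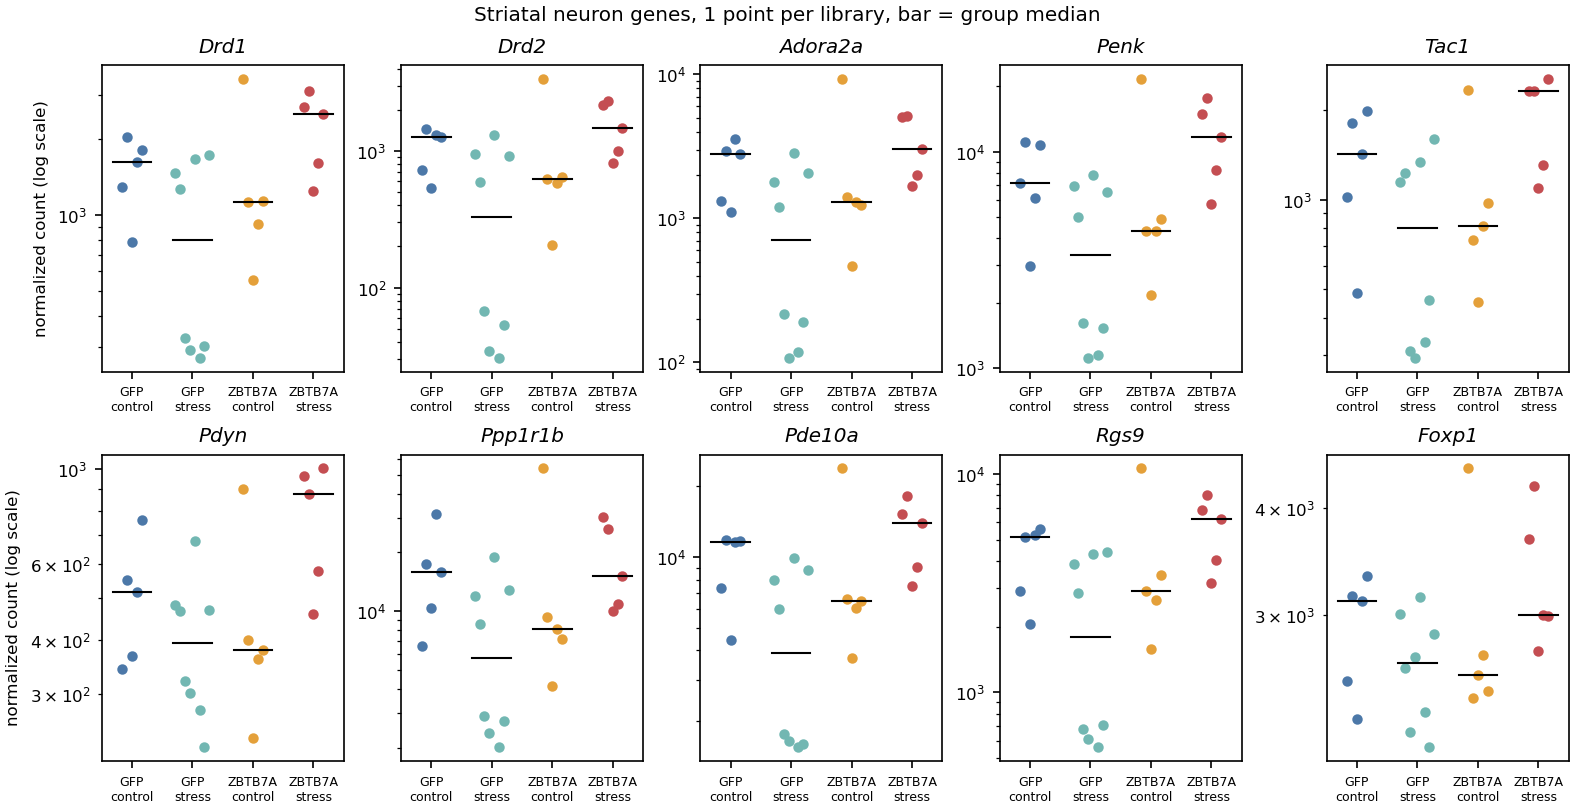
Normalized counts (log axis) of 10 members, 1 point per library and a bar at each group median, by group on the horizontal axis. For Drd2 the GFP stress points split into 4 libraries under 100 and 4 at 591 or more, while for Foxp1 all points lie between 2103 and 4450.

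Among the genes of G protein and cAMP signalling, Ppp1r1b, which encodes the protein phosphatase inhibitor DARPP-32, had the widest range. The normalized count of Ppp1r1b was 6663, 17366, 10375, 31480.3 and 15966 in GFP control. It ranged from 2008 to 19046 in GFP stress, with a median of 5749.5. ZBTB7A control had 53879, 9321, 4114, 8065 and 7212, and ZBTB7A stress 30237, 26502, 10071, 10878 and 15090.4. The highest library stood 26.8-fold above the lowest. For Pde10a, GFP control libraries gave 7387, 11758, 4424, 11525 and 11733 normalized counts. The gene's count ranged from 1547 to 9926 in GFP stress, with a median of 3894. Values were 23825, 6622, 3729.6, 6055 and 6509 in ZBTB7A control and 15211, 18158, 7537, 9105 and 13946 in ZBTB7A stress. Pde10a, the striatal phosphodiesterase that breaks down cAMP and cGMP, and Rgs9, a regulator that ends G protein signalling, had the same lowest library (GFP stress 20) and the same highest (ZBTB7A control 6). GFP control libraries had 2906, 5126, 2051, 5283 and 5593 normalized counts of Rgs9. Its count ranged from 561 to 4402 in GFP stress, with a median of 1789. In ZBTB7A control it was 10608, 2906, 1577, 2641 and 3444, and in ZBTB7A stress 6817, 7990.4, 3181, 4034 and 6200.0. The ranges of the 4 groups overlapped for each of these 3 genes. The stimulatory G protein subunit gene Gnal (5770.3 ± 1434 in GFP stress and 9245 ± 1562 in ZBTB7A stress, SD, n = 8 and 5) spanned only 2.89-fold. Adcy5, the adenylyl cyclase that Gnal drives in striatum, spanned 6.35-fold, and the phosphodiesterases Pde1b and Pde7b spanned 5.81-fold and 6.14-fold. Rasd2, a small G protein also called Rhes, spanned 7.61-fold. The phosphatase Ptpn5 (STEP), the calcium sensor Hpca and the regulated phosphoprotein Arpp21 stayed within 2.65-fold, 2.49-fold and 2.19-fold.

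The other receptors divided in the same way. Gpr6 and Gpr52, orphan receptors of indirect pathway neurons that raise cAMP, spanned 43.0-fold and 7.35-fold. With stress, Gpr6 was 703 ± 309.9 (SD, n = 5) under ZBTB7A and 256 ± 249 (n = 8) under GFP. Without stress it was 498 ± 598 (n = 5) under ZBTB7A and 446 ± 199 (n = 5) under GFP. In GFP stress the SD nearly equalled the mean, and in ZBTB7A control it exceeded it. The muscarinic receptor Chrm4 and the opioid receptor Oprm1 spanned 3.17-fold and 3.24-fold.

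The 10 transcription factors held both the narrowest and the widest ranges. The normalized count of Foxp1 was 2511, 3160.2, 2269, 3118 and 3334 in GFP control. It ranged from 2103 to 3149.7 in GFP stress, with a median of 2641. ZBTB7A control had 4449.8, 2400.3, 2553, 2696 and 2449, and ZBTB7A stress 3679, 4243, 2723, 2999.7 and 2994. Foxp1, needed for medium spiny neuron development, thus spanned 2.12-fold, the least of the 38 members with more than 3 reads in every library. Meis2, Ebf1, Bcl11b and Foxp2 also stayed under 4-fold. Six3, a factor of the indirect pathway lineage, spanned 335-fold, the most of those 38. For Six3, GFP control libraries gave 530.2, 674, 282, 512 and 642 normalized counts. The gene's count ranged from 4.11 to 583 in GFP stress, with a median of 138. Values were 1379.5, 211, 65.5, 246 and 295 in ZBTB7A control and 961, 989, 400.3, 485 and 757 in ZBTB7A stress. Isl1, a factor of the direct pathway lineage that striatal cholinergic neurons also use, was at 0 reads in GFP stress 21 and at 255 normalized counts in ZBTB7A control 6. GFP control libraries had 208, 147, 68.0, 90.5 and 102 normalized counts of Isl1. Its count was 36.9, 42.1, 10.4, 1.83, 33.7, 1.27, 0 and 75.6 in GFP stress. In ZBTB7A control it was 255, 24.1, 16.4, 34.5 and 47.3, and in ZBTB7A stress 171, 229, 43.2, 63.1 and 151. The 4 lowest libraries had 10.4 normalized counts of Isl1 or fewer, while every library outside GFP stress had 16.4 or more. Rarb, the retinoic acid receptor beta, Zfp503 and Dlx6 spanned 9.49-fold, 9.99-fold and 6.64-fold. The library kit does not mark strand, so reads of Six3 and its antisense partner Six3os1, and of Dlx6 and Dlx6os1, cannot be told apart where they overlap. Six3os1 was 149 ± 56.4 in GFP control and 37.0 ± 37.1 in GFP stress (SD, n = 5 and 8), and Dlx6os1 was 565 ± 140.5 and 492 ± 116.

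The remaining 8 members were channels, scaffold proteins and genes of other roles. Sh3rf2 spanned 117-fold, from 7.77 in GFP stress 12 to 911 in ZBTB7A control 6. Syndig1l, Lrrc10b and Slc35d3 each spanned more than 40-fold, with their lowest library GFP stress 12 and their highest ZBTB7A control 6. Scn4b, the sodium channel subunit behind resurgent current, spanned 11.1-fold. Actn2, Tmem158 and Strip2 spanned 6.93-fold, 5.33-fold and 4.55-fold.

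Over all roles, 11 members spanned under 4-fold, 13 from 4 to under 10-fold, 6 from 10 to under 40-fold and 8 spanned 40-fold or more. Drd3 and Isl1 had 3 reads or fewer in their lowest library and were given no fold. The median span of the other 38 was 7.14-fold, and that of the 15264 genes with more than 3 reads in every library was 1.67-fold. Of the 8 members with the widest spans 6 were among the 14 that mark striatum most sharply (named below), and of the 11 narrowest none was.

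The members also varied in step. The level of 14 members that mark striatum most sharply (Drd1, Drd2, Drd3, Adora2a, Gpr6, Gpr52, Ppp1r1b, Pde10a, Rgs9, Rarb, Isl1, Six3, Syndig1l and Slc35d3) was taken as the mean of their log2 values, each centred on its own mean over the libraries. Over the 23 libraries, 28 of the 40 members had a Pearson r of 0.9 or more with this level, itself left out. Adora2a had 0.996, Drd2 0.994, Rgs9 0.993 and Pde10a 0.991. The lowest were Chrm4 at 0.627 and Meis2 at 0.634, and 6 members were under 0.8. Without GFP stress 5, 12, 20 and 21, 30 members had an r of 0.9 or more over the other 19 libraries. These values describe the libraries, which share 1 size factor per library and a few far libraries, and no p is attached. The members were chosen with earlier results of these data known, and the share of all genes at that r was not counted.

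Of the 13301 genes outside the members with a mean of 50 or more, the 8 most like this level included Serpina9 (r = 0.987), Cd4 (0.985), 1700003D09Rik (0.983), Rxrg (0.982), Ccdc187 (0.981), Ido1 (0.980) and C030048H21Rik (0.980). Rxrg, a retinoid X receptor, stood at 129.8 in GFP stress 12 and 1818 in ZBTB7A control 6. Both extremes came from the libraries that were extreme for the members, which the choice of these genes by their r makes likely beforehand.

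The virus comparison under stress set ZBTB7A stress against GFP stress, and in it the members stood higher in the libraries labelled ZBTB7A stress, by a median of 1.14 on the log2 scale. All 40 differences were above 0, as 51.4% of all genes were. They ran from 0.29 to 3.42, and the median of all genes tested was 0.01. No member passed an adjusted p under 0.05 with limma, nor did any of the 16385 genes, so the percentage called over all genes was 0. At an unadjusted p under 0.05, 37 of 40 members stood higher and 0 lower, against 9.13% of all genes higher and 6.95% lower. Because the members varied in step over the libraries, such counts, here and in the comparisons below, do not count separate differences. EdgeR called 0 genes and DESeq2 46, of which 1, Strip2, was a member (adjusted p = 0.0416). Over all alternatives the adjusted p of Strip2 ran from 0.00749 to 0.973. Groups overlapped for every member, while 0.458% of all genes had non-overlapping groups with ZBTB7A stress higher and 0.543% with it lower.

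The 5 members of smallest p were Strip2, Gnal, Rarb, Isl1 and Pde10a, and none passed. The normalized count of Strip2 was 1384, 2349, 934, 1833 and 2301 in GFP control. It ranged from 746 to 1791 in GFP stress, with a median of 1226. ZBTB7A control had 3037, 1115, 957, 1253 and 1564, and ZBTB7A stress 2802, 2809.6, 1574, 2272 and 3396. Strip2, a gene of the striatin-interacting complexes, differed by 1.12 ± 0.29. Gnal differed by 0.70 ± 0.19, and Rarb by 1.57 ± 0.43. Isl1 differed by 3.27 ± 0.89, and Pde10a by 1.74 ± 0.51. The adjusted p of limma was 0.183 for each of these 5. Each had lower values in GFP stress 5, 12, 20 and 21 than in any ZBTB7A stress library.

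Among the receptors, Drd2 differed by 2.83 ± 0.87 (95% interval 1.03 to 4.64, limma adjusted p = 0.183). Drd1 differed by 1.65 ± 0.51 (adjusted p = 0.187) and Adora2a by 2.51 ± 0.80 (adjusted p = 0.193). Penk differed by 1.87 ± 0.56 (adjusted p = 0.183), Tac1 by 1.43 ± 0.47 (adjusted p = 0.200) and Pdyn by 0.97 ± 0.30 (adjusted p = 0.183). Among the signalling genes, Ppp1r1b differed by 1.58 ± 0.61 (adjusted p = 0.246) and Rgs9 by 1.77 ± 0.55 (adjusted p = 0.188). Foxp1, the member with the narrowest range, differed by 0.34 ± 0.14 (adjusted p = 0.269). Chrm4, Hpca and Meis2 were the 3 members at an unadjusted p of 0.05 or more.

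This difference was smaller without 4 libraries, as their choice by low member values in GFP stress had to make it. Without GFP stress 5, 12, 20 and 21 the median of the members was 0.51 and 1 of 40 stood higher at an unadjusted p under 0.05, as did 2.58% of all genes. Drd2 then differed by 0.67, Adora2a by 0.69, Penk by 0.73 and Isl1 by 1.29. With ZBTB7A control 6 also left out, which enters only through the shared spread, 9 members stood higher at that level, against 3.81% of all genes. The title numbers pass through the groups 3 times, in runs of 8, 7 and 8 libraries, which the labels do not call batches. Within these runs the median member difference was 1.57 (2 ZBTB7A stress libraries against 3 GFP stress libraries), 0.44 (1 against 2) and 1.30 (2 against 3).

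**Figure D3:**
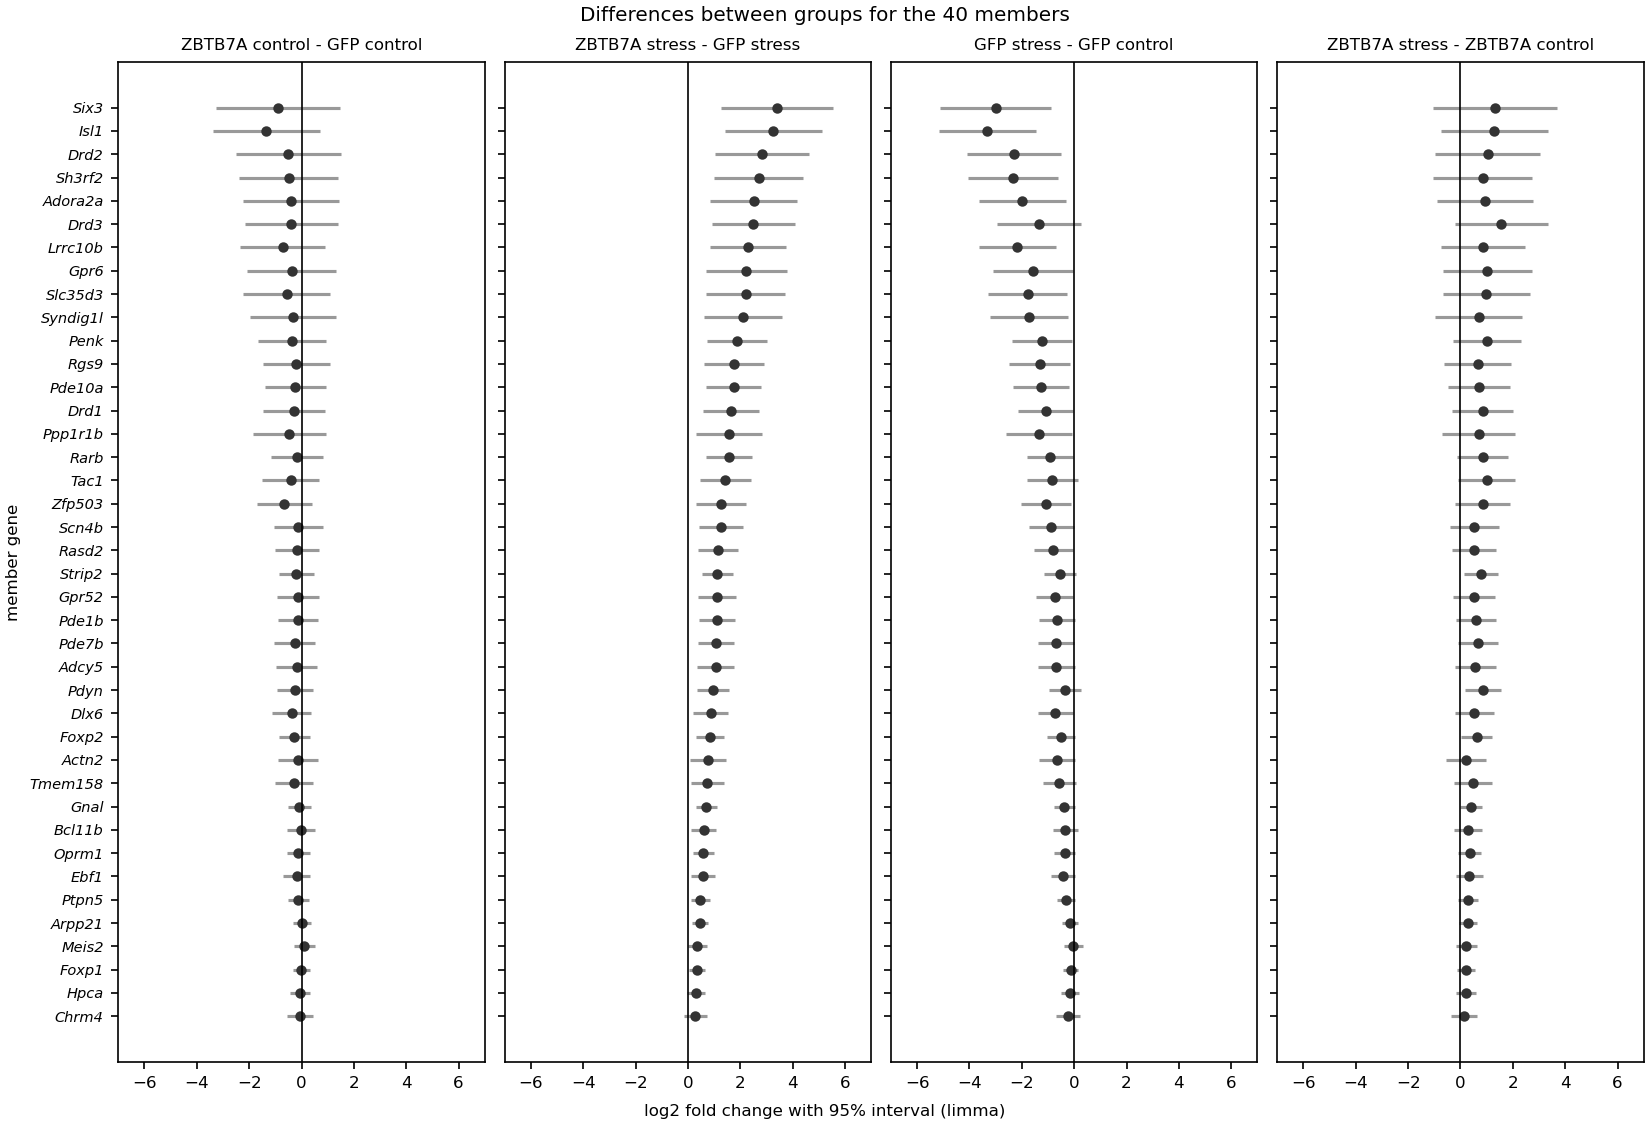
Log2 fold change with its 95% interval (limma, horizontal axis) of each member (vertical axis) in the comparisons named above the panels. All 40 points lie above 0 for ZBTB7A stress against GFP stress and all 40 lie below 0 for GFP stress against GFP control.

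The stress comparison under the control virus set GFP stress against GFP control, and here the members stood lower in GFP stress, by a median of 0.77 on the log2 scale (a log2 fold change of -0.77). All 40 differences were below 0, as were 51.6% of all genes, and they ran from -3.31 to -0.04. No member and no gene passed an adjusted p under 0.05 with limma, so the percentage called was 0. At an unadjusted p under 0.05, 21 of 40 members stood lower and 0 higher, against 7.96% of all genes lower and 3.27% higher. EdgeR called 0 genes and DESeq2 39, none of them a member. At the same unadjusted level edgeR had 2 members lower, against 7.84% of all genes, and DESeq2 had 3, against 8.67%, so both counts were near the background. Groups overlapped for every member, and for all but 0.116% and 0.256% of all genes in the higher and lower direction.

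The 5 members of smallest p were Isl1 at -3.31 ± 0.89 (limma adjusted p = 0.320), Lrrc10b at -2.17 ± 0.70 (0.326), Six3 at -3.00 ± 1.03 (0.345), Sh3rf2 at -2.33 ± 0.82 (0.350) and Drd2 at -2.29 ± 0.87 (0.380). None passed, and 4 of the 5 were among the members with the widest spans. By role, 3 of the 4 dopamine and adenosine receptors, 1 of the 3 neuropeptide precursors, 5 of the 8 signalling genes and 5 of the 10 transcription factors had an unadjusted p under 0.05. Of the other receptors it was 2 of 4, of the channel and scaffold group 5 of 8, and of Ptpn5, Hpca and Arpp21 it was 0. The share of all genes lower at that level was 7.96%.

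Without GFP stress 5, 12, 20 and 21 the median was -0.11 and 1 member stood lower at an unadjusted p under 0.05, against 2.88% of all genes. Drd2 was then at -0.13, Six3 at -0.40 and Isl1 at -1.33. These libraries were chosen as low for the members, so leaving them out had to shrink the difference. The count of 21 moved both ways when single libraries were left out. It was 30 without GFP stress 13 and 30 without ZBTB7A control 6. It was 6 without GFP control 11, 8 without GFP control 2, 9 without GFP control 19, 10 without GFP stress 5, 8 without GFP stress 12, 9 without GFP stress 20 and 11 without GFP stress 21. Over the left-out libraries the share of all genes lower at that level ran from 5.75% to 11.3%, the highest without GFP control 11. Within the number runs the median difference was -0.72 (3 GFP stress libraries against 2 GFP control libraries), -0.49 (2 against 2) and -1.34 (3 against 1).

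Without stress, ZBTB7A control was compared with GFP control. The median difference of the members was -0.24, with 38 of 40 below 0, as 55.3% of all genes were, and a range of -1.34 to 0.10. No member and no gene passed an adjusted p under 0.05 with limma, edgeR or DESeq2, so the percentage called was 0. At an unadjusted p under 0.05 no member differed, against 0.738% of all genes higher and 0.995% lower. The 5 members of smallest p were Isl1 at -1.34 ± 0.99, Zfp503 at -0.66 ± 0.51, Dlx6 at -0.38 ± 0.36, Foxp2 at -0.28 ± 0.28 and Lrrc10b at -0.72 ± 0.78, each at a limma adjusted p of 1. For Isl1 the 95% interval of the difference ran from -3.40 to 0.72, so its direction is not fixed by these libraries. Groups overlapped for every member, while 0.116% of all genes had non-overlapping groups in the higher and 0.11% in the lower direction.

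The value moved with single libraries and with the tool. Without ZBTB7A control 6, in which Drd2 stood at 3355 against 628, 204, 585 and 646 in the other ZBTB7A control libraries, the median was -0.59 and 4 members stood lower at an unadjusted p under 0.05, against 3.94% of all genes. Without ZBTB7A control 15 the median was -0.02 and 0 members did. The median was -0.03 with edgeR, -0.03 with DESeq2 and -0.72 with array weights. Without ZBTB7A control 6 and the GFP stress libraries 5, 12, 20 and 21, 23 members stood lower at that level, against 4.55% of all genes. Within the number runs the median was 1.20 (1 ZBTB7A control library against 2 GFP control libraries), -0.55 (2 against 2) and -0.74 (2 against 1). The 1 library of the first run is ZBTB7A control 6.

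Under ZBTB7A, stress against control gave members that stood higher in the libraries labelled ZBTB7A stress, by a median of 0.66, with all 40 above 0, as 52.5% of all genes were. No member and no gene passed an adjusted p under 0.05 with limma, so the percentage called was 0. At an unadjusted p under 0.05, 3 members stood higher and 0 lower, against 1.08% and 0.58% of all genes. EdgeR called 0 genes and DESeq2 1. Groups overlapped for every member, and 0.244% of all genes had them apart with ZBTB7A stress higher and 0.177% with it lower. Pdyn was at 0.86 ± 0.33, Strip2 at 0.78 ± 0.32, Foxp2 at 0.62 ± 0.28, Gnal at 0.40 ± 0.21 and Tac1 at 1.00 ± 0.52, the 5 of smallest p, each at a limma adjusted p of 1. Single libraries moved this too. Without ZBTB7A control 6 the median was 1.04 and 24 members stood higher at an unadjusted p under 0.05, against 4.59% of all genes. Without ZBTB7A control 15 the median was 0.39 and the count 0, against 0.599% of all genes. The median was 0.39 with edgeR and 0.37 with DESeq2. Without GFP stress 5, 12, 20 and 21, which enter only through the shared spread, the count was 11, against 1.17% of all genes. With ZBTB7A control 6 left out as well it was 37, against 5.32%. Left out singly, ZBTB7A control 14, ZBTB7A stress 17 and ZBTB7A stress 26 moved the count of 3 to 1, 7 and 1, against 0.88%, 1.62% and 0.733% of all genes. Within the number runs the median was -0.43 (2 ZBTB7A stress libraries against ZBTB7A control 6 alone), 0.59 (1 against 2) and 0.70 (2 against 2).

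The interaction, which asks whether the virus difference with stress differs from that without it, had a median of 1.34 over the members, with all 40 above 0, as 52.4% of all genes were. No member and no gene passed an adjusted p under 0.05 with limma, so the percentage called was 0, and 33 members stood above 0 at an unadjusted p under 0.05 and 0 below, against 5.64% and 1.78% of all genes. EdgeR called 0 genes and had 11 members above 0 at the unadjusted level, against 4.94% of all genes. DESeq2 called 3 genes, none a member, and had 14 members at that level, against 5.51%. Without GFP stress 5, 12, 20 and 21 the median was 0.76 and the count 2, against 1.94% of all genes. With ZBTB7A control 6 left out too they were 1.12 and 35, against 6.30%. Without ZBTB7A control 6 alone, 82 genes and 2 members passed. Without ZBTB7A control 15 the unadjusted count was 21, against 3.58% of all genes. The comparisons above share groups, so their differences are not separate evidence of one pattern.

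Array weights, which let a library count less where it departs from its group over all genes, gave other calls. With them 37 members passed an adjusted p under 0.05 for ZBTB7A stress against GFP stress, among 2287 genes. For GFP stress against GFP control 8 members passed among 668 genes, and for the interaction 38 among 2068. No member passed in either of the other comparisons.

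Markers of other cells and regions varied with the members to different degrees. A further 12 striatum-enriched genes, such as Rxrg, had a level with an r of 0.98 to that of the 14 sharp striatal members over 23 libraries and 0.99 over 19. The 6 markers of striatal cholinergic neurons had 0.95 and 0.88. Their summed normalized count in ZBTB7A libraries ran from 253 to 1170.0 with stress and from 73.0 to 1645 without. In GFP libraries it ran from 28.7 to 351 with stress and from 157 to 951 without. For ZBTB7A stress against GFP stress all 6 stood higher, by a median of 2.36. Of these, 5 had an unadjusted p under 0.05, against 9.13% of all genes higher. In GFP stress 21 Lhx8 and Gbx2 were at 0 reads.

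Cortical excitatory markers went the other way. Their level had an r of -0.72 over 23 libraries and -0.72 over 19. The summed count of the 12 genes in ZBTB7A libraries ran from 68831 to 103840.0 with stress and from 49812 to 116317 without. In GFP libraries it ran from 106611 to 140922 with stress and from 60669 to 139397 without. For ZBTB7A stress against GFP stress 11 of the 12 stood lower, by a median of -0.43. Of these, 5 had an unadjusted p under 0.05, while 1 gene stood higher at that level. Of all genes, 6.95% stood lower and 9.13% higher at that level. The lowest library for Slc17a7 was ZBTB7A control 6, at 10938 against a median of 44256, the library that was highest for 33 members.

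Oligodendrocyte markers had an r of 0.74 over 23 libraries and 0.36 over 19. Their summed count in ZBTB7A libraries ran from 99615 to 168574 with stress and from 69018 to 202958 without. In GFP libraries it ran from 44633 to 161165 with stress and from 90815 to 261184 without. For GFP stress against GFP control all 10 stood lower, by a median of -0.71, and 9 had an unadjusted p under 0.05. Of all genes, 7.96% stood lower at that level in this comparison. Choroid plexus and ependymal markers had an r of 0.36 and 0.15, with sums of 269 to 1136 in GFP stress, 991 to 9362 in GFP control, 591 to 1145 in ZBTB7A stress and 467 to 2049 in ZBTB7A control. For GFP stress against GFP control 8 of these 9 stood lower at an unadjusted p under 0.05, and Otx2 was at 0 in GFP stress 4. The 4 septal markers had an r of 0.43 and 0.45, with sums of 1019.7 to 1812 in GFP stress, 1556 to 5118 in GFP control, 1290.0 to 3245 in ZBTB7A stress and 1082 to 5798 in ZBTB7A control. All 4 stood lower in GFP stress than in GFP control at an unadjusted p under 0.05.

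Olfactory bulb markers had an r of -0.46 and -0.05, neuroblasts 0.62 and 0.48, and cortical interneurons -0.59 and -0.29. Astrocytes had 0.31 and 0.05, microglia 0.37 and -0.04, and vascular cells 0.06 and 0.01. The summed olfactory bulb count in GFP stress ran from 770 to 8983, the highest in GFP stress 21. Of the other libraries low in striatal members, GFP stress 12 and 20 had sums of 1809 and 3881, above their group median of 1169. GFP stress 5, at 1154, was above the median library but below the medians of its own group and of GFP control (1401). Eomes, a factor of olfactory bulb projection neurons, stood at 98.3, 275 and 592 in GFP stress 12, 20 and 21 and at 22.6 in GFP stress 5, against a median of 20.6. ZBTB7A control 24 and ZBTB7A stress 25, which were not among the low libraries, had sums of 4295 and 3864. The summed astrocyte count ran from 100477 to 131526 in GFP stress, 103727 to 143864 in GFP control, 114206 to 129875 in ZBTB7A stress and 108584 to 128940.0 in ZBTB7A control, and these ranges overlapped. The part that any of these cells or regions has in the member differences was not tested.

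**Figure D4:**
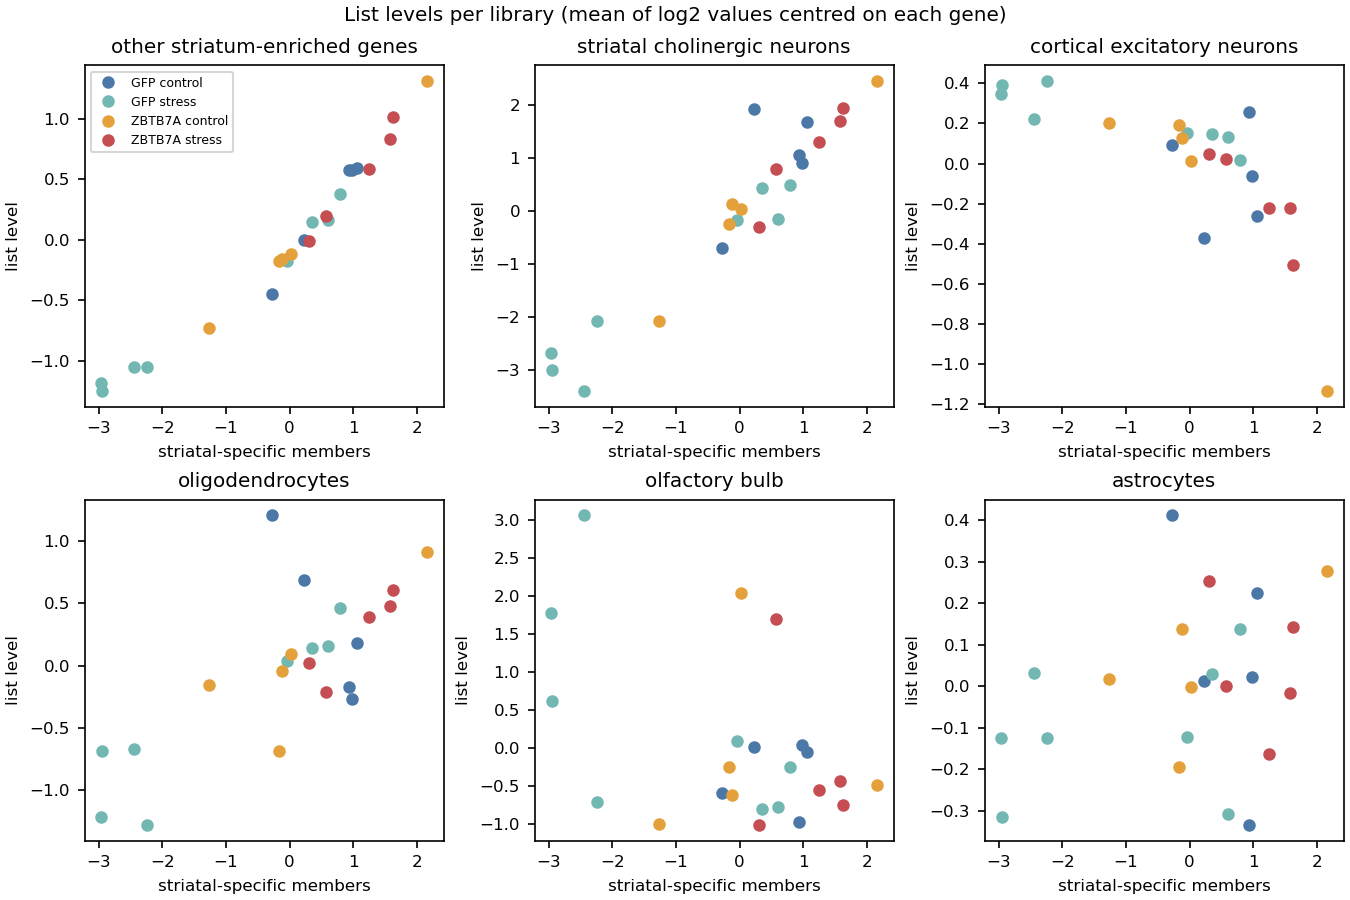
Level of other marker lists (vertical axis) against the level of the 14 sharp striatal members (horizontal axis), both as means of centred log2 values, 1 point per library, coloured by group. Other striatum-enriched and cholinergic genes follow the striatal level (r = 0.98 and 0.95), cortical excitatory genes run against it (r = -0.72).

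General signalling genes that medium spiny neurons share with other neurons went both ways. Of 33 genes of dopamine and cAMP signalling outside the members, such as the dopamine receptors Drd4 and Drd5 and G protein subunits, 5 stood higher and 5 lower at an unadjusted p under 0.05 for ZBTB7A stress against GFP stress, beside 9.13% and 6.95% of all genes, with a median of 0.02. For GFP stress against GFP control 2 stood higher and 1 lower, beside 3.27% and 7.96% of all genes, with a median of 0.01. Their mean level had an r of -0.11 with that of the striatal members over 23 libraries and 0.33 over 19.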

How the data were processed

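Bulk RNA-seq of 23 libraries in 4 groups was read from 1 deposited table of normalized counts. The authors' values are a signal, reads divided by 1 size factor per library, with no correction for gene length. DESeq2 2.11.40.6, featureCounts 2.0.1 and HISAT2 2.1.0 are listed in the submitters' processing notes, which list mm9 beside mm10 and give neither build a role. Libraries were made with TruSeq RNA v2, per the labels' protocols. Depth was 12.479 to 51.867 M recovered reads per library. The main test was limma on log2 values because the deposited counts are normalized and not raw. In every library 100% of values were whole reads within a tolerance of 0.02, so count models could be run as alternatives. The smallest chi-square per gene between libraries of one group was 3.24, so none was counted as a repeat.

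Of 27606 entries, 428 repeats were removed. A fit of 4 group means in limma 3.58.1 (R 4.3.3, trended and robust empirical Bayes) used log2(normalized count + 1) for the 16385 genes at 10 or more in at least 5 libraries. Tests were two-sided, with Benjamini-Hochberg adjustment over all genes and a threshold of 0.05. Whole reads were also tested with DESeq2 1.42.0 and edgeR 4.0.16. The limma fit was repeated with each library left out, on the compared groups alone, with the number run as covariate, with array weights, without the robust option, with TMM scaling, with a filter at a mean of 50, with no filter, with a pseudocount of 5 and at an adjusted p under 0.1. A pair of further fits without the libraries far in striatal level were added after the data were seen. The fit was tested on simulated data in which genes varied independently, so that test does not cover genes that vary in step, as the members did.

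Statistics are named for 10 members (Drd1, Drd2, Adora2a, Penk, Tac1, Pdyn, Ppp1r1b, Pde10a, Rgs9 and Foxp1) in ZBTB7A stress against GFP stress and for the 5 of smallest p in each comparison of 2 groups. Other genes named are the 8 most like the striatal level, Zbtb7a and, after their values were seen, Six3os1, Dlx6os1, Slc17a7, Eomes and the cholinergic and choroid plexus genes at 0. Some genes that these rules take are not reported here. The members and lists were chosen with earlier results of these data known. Promoters came from RefSeq, and tables and figures from Python 3.11.15, pandas 2.3.3, numpy 2.4.6 and matplotlib 3.10.9.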

Additional observations from a re-analysis of the deposited data

Results flagged for a closer look

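The highest or lowest library of each group was compared with its nearest neighbour for each member, over 160 groups of values, by Dixon's gap test at its 95% level, which chance passes in about 1 of 20 groups. It was passed 12 times, 11 of them by ZBTB7A control 6 as the highest of 5 libraries. In that library the normalized count of the cAMP signalling genes was 12266 for Gnal, 20258 for Pde1b, 3063 for Pde7b and 12176 for Rasd2. It was 11103 for Ptpn5, 24013 for Hpca and 19102 for Arpp21, and 4450 (4449.84) for Foxp1. Among channels and scaffolds it was 22366 for Scn4b, 2371 for Actn2 and 4028 for Tmem158. The other value was Hpca in GFP stress 21, the lowest of 8 libraries at 9662. These values of ZBTB7A control 6 come from the library with the lowest Slc17a7, at 10938, and the fewest reads. Without it the median member difference moved from -0.24 to -0.59 for ZBTB7A control against GFP control and from 0.66 to 1.04 for ZBTB7A stress against ZBTB7A control.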

How the results depend on the processing

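Over 36 alternatives none of 29 single-gene differences checked changed direction, nor did the median of the members in any comparison. The direction of the other members was not checked one by one. Within the first number run, which is not among these alternatives, 2 medians were reversed. They were 1.20 for ZBTB7A control against GFP control and -0.43 for ZBTB7A stress against ZBTB7A control, with ZBTB7A control 6 as the 1 ZBTB7A control library. No member passed the threshold except under DESeq2 (1, ZBTB7A stress against GFP stress), with array weights (37 for ZBTB7A stress against GFP stress, 8 for GFP stress against GFP control, 38 for the interaction) and without ZBTB7A control 6 (2 for the interaction). Over all genes, DESeq2 called 46, 39, 1 and 3 for ZBTB7A stress against GFP stress, GFP stress against GFP control, ZBTB7A stress against ZBTB7A control and the interaction. Array weights called 2287 for ZBTB7A stress against GFP stress, 668 for GFP stress against GFP control and 2068 for the interaction. Only the groups compared gave 2 genes for ZBTB7A stress against GFP stress, an adjusted p under 0.1 gave 1 for the interaction, and leaving out GFP stress 5, 12, 20 and 21 together gave 1 for GFP stress against GFP control. The cause was not tested.

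With each of 23 libraries left out, genes past the threshold numbered 0 to 3 for ZBTB7A stress against GFP stress, 0 to 82 for the interaction and 0 in the other comparisons. Members numbered 0 to 2 for the interaction and 0 elsewhere. The median of the members ran from 1.05 to 1.29 for ZBTB7A stress against GFP stress, from -0.96 to -0.66 for GFP stress against GFP control, from -0.59 to -0.02 for ZBTB7A control against GFP control, from 0.39 to 1.04 for ZBTB7A stress against ZBTB7A control, and from 1.18 to 1.72 for the interaction. No paired analysis was possible because no title number is shared between groups. Low counts limit the precision of Drd3 and Isl1, at 1 and 0 reads in their lowest libraries, GFP stress 20 and 21, which held 35.923 and 15.894 M reads.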
